A study of Homo sapiens with 10 samples.

Results

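Cyclins and cyclin-dependent kinases (CDKs) of G1 and S phase were read out in H1-derived cardiomyocytes; H1 is an established line of human embryonic stem cells. The 10 genes were chosen by symbol: CCND1, CCND2, CCND3, CCNE1, CCNE2, CCNA2, CDK1, CDK2, CDK4 and CDK6. They are 10 of 78932 gene identifiers in the count table, and all 10 passed the filter on low counts, as did 21033 identifiers in all. All libraries come from this 1 line. In 5 of them, beating cells on day 9 of differentiation were transfected with 50 nM of a GapmeR (an antisense oligonucleotide that makes RNase H cut the RNA it pairs with) against the RNA named CLIPPER. The other 5 received a control GapmeR at the same dose, are labelled wild type, and like the first were kept in RPMI medium with insulin and harvested after 48 hours. No sort of the cells is named in the labels, and total RNA was sequenced in bulk. A difference in bulk RNA cannot tell fewer cells of one type apart from less RNA per cell.

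D-type cyclins are made in response to growth signals. They bind CDK4 or CDK6 and start the phosphorylation of the retinoblastoma protein RB1, which releases E2F factors. E2F factors then switch on the genes of cyclin E and cyclin A, which bind CDK2 and carry the cell into and through S phase, and cyclin A also works with CDK1 on the way to mitosis. Cardiomyocytes lower these genes as they leave the cell cycle after birth, and forced expression of cyclins and CDKs has been used to push them to divide. The title of the series names heart regeneration.

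Of the 10 genes, 6 were higher and 3 lower in the CLIPPER knockdown, and CCNE1 did not pass the test. CCND2 and CDK6 fell about as much as each other, 4.34-fold and 3.99-fold, and CCND1 fell 1.75-fold. CDK2 rose 3.5-fold and CCND3 2.75-fold, and CCNA2, CCNE2, CDK4 and CDK1 rose 1.74-fold, 1.7-fold, 1.63-fold and 1.56-fold. In edgeR's quasi-likelihood test, with a threshold of 0.05 on the adjusted p, 79.7% of all tested genes were called, 40.1% as higher and 39.6% as lower, so that 9 calls among 10 genes lie near the background. The groups did not overlap in 8 of the 10 genes, against 67.5% of all tested genes. Of those 8, 5 were higher and 3 lower in every knockdown library, against 33.7% and 33.8% of all tested genes. The median log2 fold change of the 10 was 0.67, beside 0.0056 for all tested genes and -0.22 for all tested protein-coding genes.

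**Figure D1:**
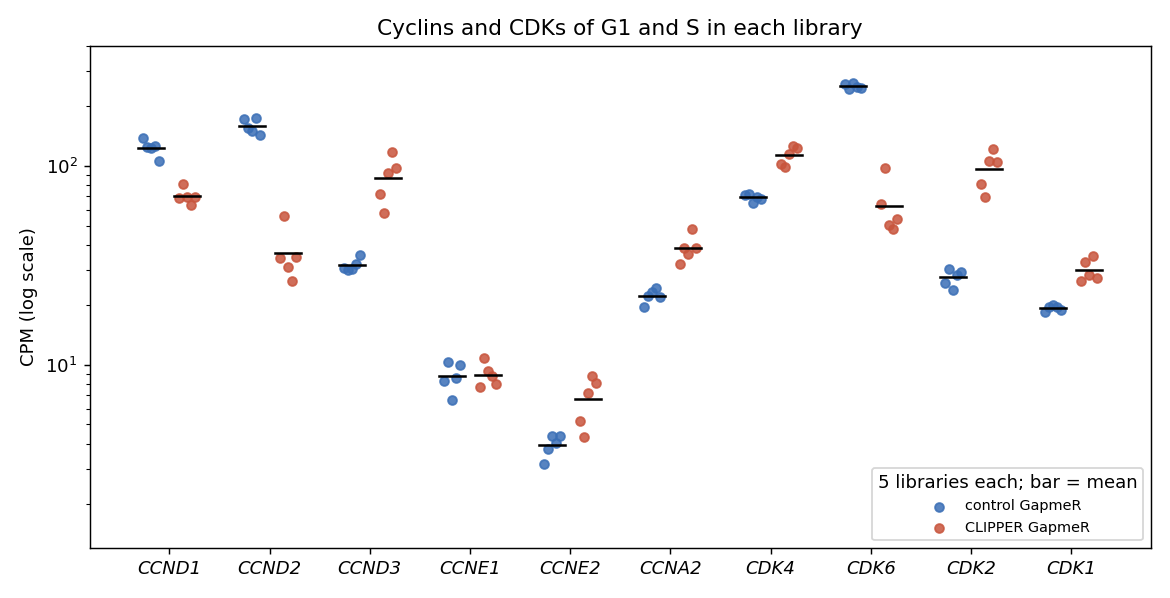
Counts per 1e6 counts (CPM, log scale) of each gene in the 5 control and 5 CLIPPER knockdown libraries, with the group mean as a bar. Control CDK6 lies between 243 and 259 and knockdown CDK6 between 47.8 and 97.7, while the groups overlap for CCNE1 and CCNE2.

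Libraries held 32.9 to 45.1 in units of 1e6 counts, so that 1 count stood for about 0.026 CPM (counts per 1e6 counts of the library total, scaled by the trimmed mean of M-values). No gene of the annotation is named CLIPPER, and the target was not analysed here, so the labels were not checked against it. Of 10 cardiomyocyte markers 7 were lower and 3 not called, and their summed level was 25333 to 34887 CPM in control and 9840 to 16114 CPM in knockdown libraries. The defining markers TNNT2, MYH6 and ACTN2, all of the contractile apparatus, went from 4430 to 1500, from 9880 to 2850 and from 2290 to 583 CPM. Of the stromal fibroblast list 8 of 9 genes were tested, 1 rose and 5 fell, with sums of 1267 to 1388 and 951 to 1112 CPM, and COL1A1 (377 and 371 CPM) and PDGFRA (16.8 and 14.8 CPM) were not called. All 5 smooth muscle markers fell, with sums of 1253 to 2532 and 497 to 924 CPM. Of 8 endothelial markers 5 were tested and 3 fell, with sums of 41.9 to 63.7 and 18.7 to 26.3 CPM, and the defining PECAM1 and CDH5 stayed below the filter. Of 8 pluripotent cell markers 5 were tested, 3 rose and 1 fell, with overlapping sums of 7.88 to 10.5 and 8.51 to 10.9 CPM and with POU5F1 and NANOG below the filter. Of 5 epicardial markers 2 were tested and both fell (sums 4.11 to 5.43 and 2.03 to 3.51 CPM), and of 6 endoderm markers 2 were tested and 1 rose (sums 5.62 to 7.19 and 10.8 to 19.8 CPM). The falls of DCN (stromal) and WT1 (epicardial) lie near the threshold and were not called in 10 of 19 and 10 of 18 alternatives. In the pluripotent sum DNMT3B fell from 7.86 to 4.01 CPM. LIN28A rose from 0.258 to 2.51 CPM, DPPA4 from 0.211 to 1.65 and ZFP42 from 0.14 to 0.805. The endoderm sum was mostly APOA1 (6.03 and 14.9 CPM), and SOX17 (0.372 and 0.346 CPM) was not called. All these sums but that of the pluripotent list moved with the groups, and their part in the cyclin and CDK results was not tested.

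The D-type cyclins split. CCND2 (ENSG00000118971, chromosome 12, 4269771 to 4305353 on the plus strand of GRCh38), whose overexpression drives cell cycle entry of mouse cardiomyocytes, had 171, 155, 149, 173 and 143 CPM in control replicates 1 to 5 and 34.5, 56.0, 30.8, 26.2 and 34.8 CPM in knockdown replicates 1 to 5. Every knockdown library lay below every control, and knockdown replicate 2 was the highest of the 5. The log2 fold change was -2.12 ± 0.178 (SE, edgeR adjusted p = 4.9e-07). CCND1 (ENSG00000110092, chromosome 11, 69641156 to 69654474, plus strand), the D-type cyclin best known as a mitogen sensor, had 138, 124, 123, 126 and 105 CPM in control libraries. In knockdown libraries it had 69.1, 80.5, 69.8, 63.5 and 69.2 CPM. The groups did not overlap and the log2 fold change was -0.81 ± 0.0938 (SE, edgeR adjusted p = 6.1e-06). CCND1 shares 10.4% of its exon bases with LTO1 on the other strand (14.4 and 10.4 CPM), and CCND2 12.5% with the coding gene ENSG00000285901 on its own strand (14.0 and 21.6 CPM).

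CCND3 (ENSG00000112576, chromosome 6, 41934934 to 42050357, minus strand), which also binds CDK4 and CDK6, went the other way. Its control values were 30.6, 29.8, 30.2, 32 and 35.4 CPM, and its knockdown values 71.9, 57.5, 92.0, 117 and 97.3 CPM. Knockdown replicates 1 and 2 were the lowest of their group and still lay above all controls. The log2 fold change was 1.46 ± 0.164 (SE, edgeR adjusted p = 4.5e-06).

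Per kb of exon, the D-type cyclin RNA was made up differently in the 2 groups. CCND3 took 10.8% ± 1.47 of the summed level in control and 43.6% ± 9.56 of it after knockdown (SD, n = 5). CCND2 took 38.7% ± 0.993 and 13.3% ± 4.47, and CCND1 50.5% ± 1.91 and 43.1% ± 5.3. The 3 genes summed to 51.2 ± 3.69 CPM per kb of exon in the control group and to 34.5 ± 2.11 after knockdown (SD, n = 5). That lower sum depended on the length used. Divided by the length of the canonical transcript (2.03 kb for CCND3, against 5.76 kb for all its exons joined), the sums were 69.1 ± 4.0 and 65.2 ± 8.73, which overlap, and CCND3 took 22.7% ± 2.63 and 65.0% ± 9.24.

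**Figure D2:**
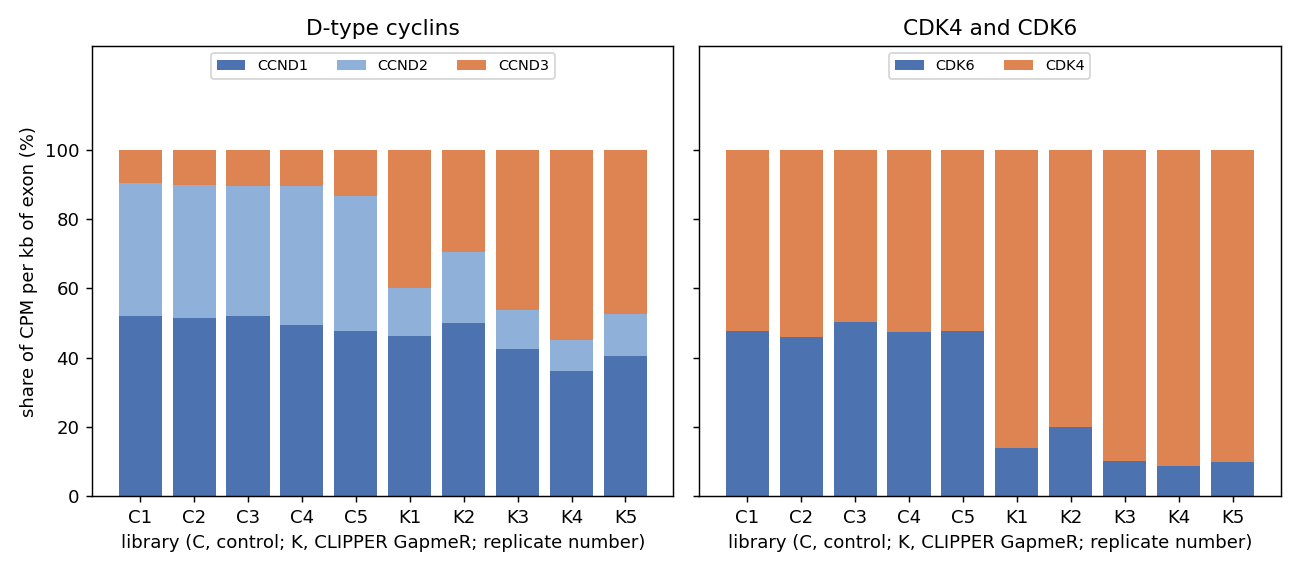
Share of each gene in the summed level per kb of exon (%), for the D-type cyclins and for CDK4 with CDK6, in 5 control (C) and 5 CLIPPER knockdown (K) libraries. The CCND3 share is 9.53% to 13.3% in control and 29.4% to 55.0% in knockdown libraries, and the CDK6 share 45.9% to 50.4% and 8.72% to 20.1%.

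CDK4 and CDK6, the 2 kinases that D-type cyclins activate, also moved apart. CDK6 (ENSG00000105810, chromosome 7, 92604921 to 92836573, minus strand) had 256, 243, 259, 248 and 246 CPM in control replicates, and in knockdown replicates 64.4, 97.7, 50.4, 47.8 and 53.7 CPM. The control values varied little (coefficient of variation 2.73%), the knockdown values more (32.6%), with replicate 2 again nearest to the controls. The log2 fold change was -2.0 ± 0.178 (SE, edgeR adjusted p = 7.6e-07). CDK4 (ENSG00000135446, chromosome 12, 57747727 to 57756013, minus strand) had 71.3, 72.2, 64.6, 69.7 and 68.2 CPM in control replicates, and in knockdown replicates 102, 98.0, 114, 126 and 123 CPM, without overlap. Its log2 fold change was 0.70 ± 0.0891 (SE, edgeR adjusted p = 1.2e-05).

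Per kb of exon CDK4 and CDK6 stood close in control libraries, at 22.3 ± 0.945 and 20.5 ± 0.577 CPM per kb (SD, n = 5), with overlapping ranges. In knockdown libraries they stood at 36.4 ± 4.02 and 5.13 ± 1.67. Their sum was 42.8 ± 0.755 in control and 41.5 ± 2.82 in knockdown libraries, a difference smaller than the spread of the knockdown libraries. Per kb of canonical transcript it was 58.6 ± 1.33 and 65.8 ± 5.36, with ranges that touched at 60.1. The closeness of CDK4 and CDK6 in control libraries depended on the length used. Per kb of canonical transcript they stood there at 37.1 ± 1.61 and 21.5 ± 0.577 (SD, n = 5), without overlap. The count of CDK4 is uncertain, because 44.2% of its exon bases overlap TSPAN31 on the other strand and the strand setting of the counting is not given in the sources used here. TSPAN31, a tetraspanin gene, stood at 15.7 ± 1.5 CPM in the control group and at 41.9 ± 14.0 CPM in the knockdown group (SD, n = 5).

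CDK2, the partner of cyclins E and A, had the largest rise of the 10 genes. CDK2 (ENSG00000123374, chromosome 12, 55966781 to 55972789, plus strand) had 25.7, 30.4, 23.6, 28.3 and 29.1 CPM in control replicates, and in knockdown replicates 81.3, 69.8, 105, 121 and 104 CPM. All knockdown libraries lay above all controls, replicates 1 and 2 by the smallest margin. The log2 fold change was 1.81 ± 0.145 (SE, edgeR adjusted p = 3.5e-07). Per kb of exon CDK2 made up 58.8% ± 2.8 of CDK1 and CDK2 together in control and 75.9% ± 4.54 in knockdown libraries, and the sum of both went from 12 ± 0.689 to 32.4 ± 5.54 CPM per kb (SD, n = 5).

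The E-type cyclins, which activate CDK2 at the start of S phase, were the least abundant of the 10 genes per kb of exon. CCNE1 (ENSG00000105173, chromosome 19, 29811991 to 29824312, plus strand) had 8.3, 10.3, 6.65, 8.51 and 10 CPM in control replicates, and in knockdown replicates 7.71, 10.8, 9.28, 8.72 and 7.97 CPM. The ranges overlapped almost wholly, and the log2 fold change was 0.02 ± 0.139 (SE, edgeR adjusted p = 0.88). CCNE2 (ENSG00000175305, chromosome 8, 94879770 to 94896678, minus strand) had 3.16, 3.74, 4.36, 4.04 and 4.37 CPM in control replicates, and in knockdown replicates 5.2, 4.3, 7.16, 8.76 and 8.1 CPM. Knockdown replicate 2 lay within the control range, and the log2 fold change was 0.77 ± 0.195 (SE, edgeR adjusted p = 0.003). The CCNE2 levels rest on 753 counts over all control and 1246 over all knockdown libraries. CCNE2 shares 37.0% of its exon bases with INTS8 on the other strand, an Integrator subunit gene at 30.6 ± 2.49 and 33.2 ± 4.1 CPM (SD, n = 5), so its count is uncertain too. CCNE2 made up 20.4% ± 3.95 of E-type cyclin RNA per kb of exon in control and 29.6% ± 7.4 in knockdown libraries, with overlapping ranges, and the sum of both genes was 4.45 ± 0.592 and 5.14 ± 0.493 CPM per kb (SD, n = 5).

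CCNA2, the S and G2 cyclin, and CDK1, the mitotic kinase that it also binds, rose by similar amounts. CCNA2 (ENSG00000145386, chromosome 4, 121816444 to 121823883, minus strand) had 19.5, 22.1, 23.2, 24.2 and 21.9 CPM in control replicates, and in knockdown replicates 32, 38.4, 36.1, 47.9 and 38.4 CPM. CDK1 (ENSG00000170312, chromosome 10, 60778331 to 60794852, plus strand) had 18.4, 19.4, 20, 19.4 and 18.9 CPM in control replicates, and in knockdown replicates 26.4, 32.7, 28.3, 35.0 and 27.3 CPM. In both genes the groups did not overlap, knockdown replicate 1 was the lowest of its group and replicate 4 the highest. The log2 fold changes were 0.80 ± 0.11 for CCNA2 and 0.64 ± 0.0938 for CDK1 (SE, edgeR adjusted p = 2.5e-05 and 4.3e-05). CCNA2 shares 9.24% of its exon bases with EXOSC9 on the other strand, an exosome subunit gene that fell from 20.7 to 12 CPM.

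The promoters of CCNA2 and CDK1 are shown because both genes are textbook targets of the MuvB complex, which binds a short element named CHR (cell cycle genes homology region), usually near CCAAT boxes. The sequences are from RefSeq (GRCh38.p14), written 5′ to 3′ on the strand of the gene, with matches to CHR (TTTGAA or its variant CTTGAA) and to the CCAAT box in capitals. Where that box lies on the other strand it reads ATTGG here. The CCNA2 sequence is the 250 bases before its start (chr4:121823884-121824133), and the CDK1 sequence is 30 bases (chr10:60778397-60778426) before the start of its canonical transcript.
CCNA2: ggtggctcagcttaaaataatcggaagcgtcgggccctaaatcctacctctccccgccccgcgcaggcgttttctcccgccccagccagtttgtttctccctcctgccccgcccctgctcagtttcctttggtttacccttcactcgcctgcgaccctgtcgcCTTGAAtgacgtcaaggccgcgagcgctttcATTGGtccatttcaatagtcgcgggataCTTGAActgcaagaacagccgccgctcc
CDK1: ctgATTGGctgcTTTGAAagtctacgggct

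In the CCNA2 window CTTGAA began 87 and 28 bases before the start, and the CCAAT box lay between them. The 250 bases before the canonical CDK1 start held TTTGAA at 69 and 13 bases and CCAAT boxes at 78 and 46 bases, of which the printed stretch shows those at 69 and 78. They also held the E2F letters TTTNNCGC at 128 and 27 bases before that start. CDK1 has another RefSeq start at the first base of the gene (60778331), and the printed stretch lies downstream of it. The 250 bases before that start held TTTGAA at 161 and a CCAAT box at 150 bases, and no E2F letters. Both strands were searched in the 250 bases before each of 35116 RefSeq starts. TTTGAA was in 13.3% of them, CTTGAA in 9.52%, CCAAT in 32% and TTTNNCGC in 5.92%. Of the 6 genes here with a RefSeq promoter entry (CCND3, CCNE1, CCNA2, CDK4, CDK6 and CDK1), CCNA2 and CDK1 had a CHR form, against 24.7% of 27305 genes. CCNA2 had only the CTTGAA form, which was chosen after the sequences were seen. A match is a description of letters and not a binding site.

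**Figure D3:**
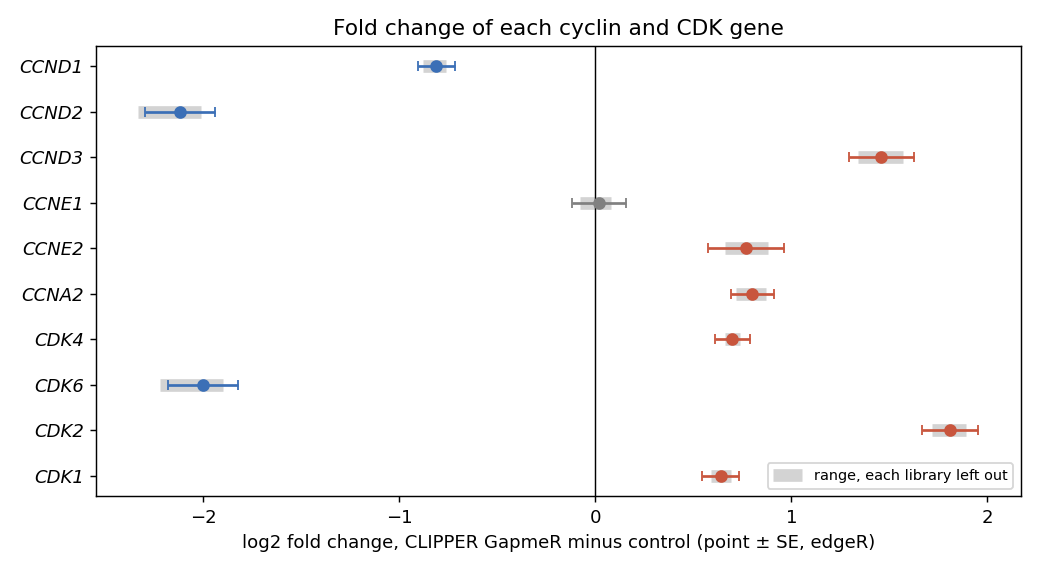
Log2 fold change of each gene (CLIPPER knockdown minus control, point with SE from edgeR). The grey bar is the range of the value when each of the 10 libraries was left out in turn, from -2.33 to -2.01 for CCND2 and from 1.72 to 1.89 for CDK2, and CCNE1 is the gene in grey whose bar spans 0.

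Per kb of exon the order of levels changed between the groups. In control libraries CCND1 (25.9 CPM per kb), CDK4, CDK6 and CCND2 (19.8) led, and each neighbour in that order overlapped the next. CCNA2 (8.06), CDK2 (7.06) and CCND3 (5.48) followed, again with overlap between neighbours, and then CDK1 (4.92), CCNE1 (3.55) and CCNE2 (0.894), each below the one before without overlap. In knockdown libraries CDK4 (36.4) led without overlap, followed by CDK2 (24.8), CCND3 (15.1), CCND1 (14.8) and CCNA2 (14.0), whose neighbours overlapped. CDK1 (7.66), CDK6 (5.13) and CCND2 (4.57) came next, with CCNE1 (3.62) and CCNE2 (1.52) at the end. The order depended on the length used. With the canonical transcript length in place of all exons CCND3 stood at rank 5 in control and rank 2 in knockdown libraries. CDK4 then led in control libraries (34.6 to 38.7), without overlap with CCND1 (24.7 to 32.6). In knockdown libraries the range of CDK4 (52.6 to 67.8) overlapped those of CCND3 (28.4 to 57.7) and CDK2 (31.2 to 53.9).

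Knockdown libraries differed in how far they moved. Measured as log2 CPM against the control mean, knockdown replicate 4 had the largest shift in 9 of the 10 genes, the exception being CCNE1. Knockdown replicate 2 had the smallest shift in 7, all but CCNA2, CDK1 and CCNE1. For CDK6 the shifts were -1.96, -1.36, -2.31, -2.39 and -2.22 in knockdown replicates 1 to 5. For CCNA2 they were 0.53, 0.80, 0.70, 1.11 and 0.80, and for CDK1 0.46, 0.77, 0.56, 0.86 and 0.50, so that replicate 2 did not have the smallest shift. Among 12 mitotic genes the smallest shift was in replicate 1 for 5 (CCNB1, CCNB2, PLK1, BUB1 and MKI67), in replicate 2 for 2 (AURKB and BUB1B), in replicate 3 for 3 (TTK, TOP2A and CENPF) and in replicate 5 for 2 (AURKA and KIF11). Mitochondrial genome genes took 16.2%, 17.5% and 16% of the counts in knockdown replicates 3, 4 and 5, against 11.5% and 10.9% in replicates 1 and 2 and 10% to 12.2% in control libraries. The scaling factors (trimmed mean of M-values) were 0.9558, 0.8992 and 0.9665 in replicates 3 to 5 and 1.162 and 1.119 in replicates 1 and 2. With those genes removed the 10 genes again gave 6 higher and 3 lower calls. They did so too without replicates 1 and 2. That pair was chosen because earlier results had shown it nearest to the controls, so this setting is a weak check.

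Genes nearest in profile were found by the root mean square difference over the 10 libraries, in log2 CPM minus the control mean, among 14514 named genes with a mean of at least 1 CPM. CDK1 lay nearest to BUB1, a spindle checkpoint kinase gene (difference 0.0632), then to CMPK1 (0.0935) and PELI1 (0.0991). CCNA2 lay nearest to PLK1, the polo-like mitotic kinase gene (0.0946), then to ZNF275 (0.0979) and DEPDC1 (0.107). CDK6 lay nearest to HTT (0.0438), AGO2 (0.0536) and DDI2 (0.0618). CDK4 lay nearest to TPP1 (0.0366), MOB1A (0.0497) and CCNI (0.0529). For CCND2 the nearest was VPS35L (0.0747), for CCND1 SIK2 (0.0512), for CCND3 HAUS6 (0.0764), for CCNE1 TES (0.103), for CCNE2 KMT5C (0.0818) and for CDK2 QTRT1 (0.0585). Within the 10 genes CCND2 and CDK6 were nearest to each other (0.133), as were CCNA2 and CDK1 (0.143). The measure holds the difference between the groups as well as the spread within them.

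Fold changes across the transcriptome went with gene span (start to end of the gene, introns included), and the values of the 10 genes are set beside it. CDK6 spans 232 kb, and its own log2 fold change was -2.0. Tested protein-coding genes of 100 to 300 kb had a median log2 fold change of -1.30, and 82.8% of them were lower. CCND3 spans 115 kb and rose, against 6.78% of genes in that range, although its canonical transcript (41934952 to 41941808) spans 6.86 kb. CCND2 spans 35.6 kb, in a range of 30 to 100 kb with a median of -0.48, and its own value was -2.12. CCND1 spans 13.3 kb and fell, as did 29.1% of coding genes of 10 to 30 kb, whose median was 0.27. CCNE1, CCNE2 and CDK1, of 12.3, 16.9 and 16.5 kb, are in the same range. CDK2, CCNA2 and CDK4 span 6.01, 7.44 and 8.29 kb, and genes of 3 to 10 kb had a median of 0.71, with 64.4% higher. The values of CDK2, CCNA2 and CDK4 were 1.81, 0.80 and 0.70. Of list genes named below, RB1, TFDP2, MNAT1, LIN52, CDK13 and CDK19 span 116.5 to 295.7 kb and fell. FBXW7 spans 215.5 kb and was called higher. CCNY spans 325.6 kb and fell, as did 93.4% of coding genes above 300 kb. CDKN1C, CKS1B and CKS2 span 2.563, 4.599 and 5.509 kb and rose, while AURKB spans 5.868 kb and fell. The part of span in these values was not tested.

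**Figure D4:**
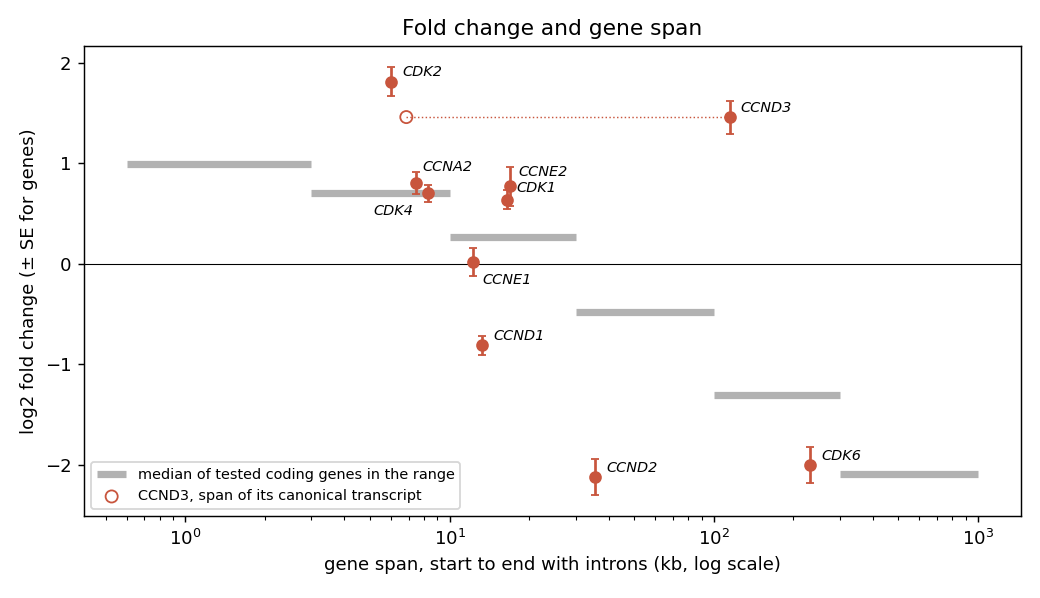
Log2 fold change (± SE) of each cyclin and CDK gene against its span (kb, log scale), with grey bars for the median of tested protein-coding genes in each range of span; the end ranges have no outer limit. CDK4 and CCNA2 lie near the grey bar of their range (0.71) and CDK2 lies above it. CCND1, CCND2 and CDK6 lie below theirs and CCND3 above its own. The open circle sets CCND3 at the 6.86 kb span of its canonical transcript.

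As background to the lists that follow, 5135 of 14777 tested protein-coding genes were called higher and 6949 lower, at a median log2 fold change of -0.22. CDK inhibitors, which bind and block these kinases, moved both ways. Of 7 listed genes 6 were tested, 3 rose and 1 fell, and the median log2 fold change was 0.375 (CDKN1B was called lower too without control replicate 2, and without control replicate 5). CDKN1C, which encodes p57, rose 5.06-fold from 17.1 to 86.5 CPM (log2 fold change 2.34 ± 0.0923 SE, edgeR adjusted p = 7.12e-09). CDKN2D, which encodes the CDK4 and CDK6 inhibitor p19, rose 2.46-fold and CDKN2B (p15) 1.59-fold. CDKN1A, which encodes p21 and was the most abundant of them, fell 2.78-fold from 807 to 290 CPM (log2 fold change -1.48 ± 0.123 SE, edgeR adjusted p = 4.64e-07). CDKN1B (65.0 and 57.0 CPM) and CDKN2C (1.49 and 1.56 CPM) were not called, and CDKN2A had 43 and 29 counts in all and was not tested.

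Of 13 RB pocket protein, E2F and DP genes 3 rose and 6 fell, at a median of -0.14 on the log2 scale (with upper-quartile scaling 5 rose and the median was 0.06, beside 0.203 for all genes). TFDP1, the main dimerisation partner of E2F factors, fell 4.26-fold from 76.2 to 17.9 CPM (log2 fold change -2.09 ± 0.0976 SE). RB1 itself fell 3.22-fold and TFDP2 1.99-fold. E2F1, an activator, rose 2.07-fold, E2F5, a repressor, 1.64-fold and E2F7, an atypical repressor, 1.5-fold. Of the other pocket protein genes, RBL1 fell 3.15-fold from 9.61 to 3.03 CPM, and RBL2 (52.2 and 52.3 CPM) was not called. E2F5 shares 16.6% of its exon bases with RBIS on the other strand.

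Of the 7 genes of the MuvB core with MYBL2 and FOXM1, 6 fell and 1 rose, at a median of -0.47 on the log2 scale (3 fell with upper-quartile scaling). MYBL2 and FOXM1, the activators that join MuvB at S and G2 phase genes, fell 1.93-fold and 2.21-fold. LIN52, a MuvB subunit, fell 3.4-fold, and RBBP4, a histone-binding subunit that MuvB shares with other complexes, rose 1.97-fold. Overlap with a coding gene on the other strand covers 15.9% of the exon bases of FOXM1 and 22.8% of those of RBBP4.

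Among 10 genes that set CDK activity by phosphorylation or binding, 5 rose and 2 fell, at a median of 0.29 on the log2 scale (8 rose with upper-quartile scaling). CKS2 and CKS1B, small proteins that bind CDKs and help them to meet their substrates, rose 5.63-fold and 3.17-fold. The phosphatase gene CDC25B rose 1.44-fold and CDC25C fell 1.55-fold. MNAT1, the assembly factor of the CDK-activating kinase, fell 4.05-fold from 13.5 to 3.31 CPM.

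Parts of ubiquitin ligases that degrade cell cycle proteins, G1 and S cyclins among them, split as well. Of 14 genes 6 rose and 8 fell, at a median of -0.37 on the log2 scale. AMBRA1, the adaptor that targets D-type cyclins, fell 4.29-fold from 55.1 to 12.8 CPM (log2 fold change -2.10 ± 0.15 SE, edgeR adjusted p = 1.56e-07). The scaffold genes CUL1 and CUL4A fell 2.96-fold and 2.28-fold and CUL4B rose 2.25-fold. CDC20, an activator of the anaphase-promoting complex, rose 2.84-fold and CCNF, the F-box protein cyclin F, 1.56-fold. AMBRA1 spans 197.7 kb, CUL1 103.2 kb and CUL3, which fell by 0.45 on the log2 scale, 115.2 kb, in the range where 82.8% of coding genes were lower. FBXW7, the F-box protein that targets cyclin E, spans 215.5 kb in that range and was called higher (log2 fold change 0.36, edgeR adjusted p = 0.0159, but 0.054 and 0.0541 without control replicates 2 and 5), and CUL4B spans 98.16 kb.

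Of 20 E2F target genes of DNA replication 5 rose and 8 fell, at a median of 0.10 on the log2 scale. With upper-quartile scaling 10 rose, and without knockdown replicates 1 and 2 together 9 did. CDT1, the licensing factor, rose 3.43-fold, UNG, the uracil glycosylase, 2.54-fold and PCNA, the sliding clamp, 2.47-fold. RRM2, a subunit of ribonucleotide reductase, fell 2.28-fold, MCM10 2.64-fold and the helicase subunit gene MCM5 1.77-fold.

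Mitotic cyclins, kinases and proliferation markers were mostly higher, 9 of 12 rising and 2 falling, at a median of 0.58 on the log2 scale. Of all tested genes 40.1% were called higher and 39.6% lower. CCNB1 and CCNB2, the B-type cyclins of CDK1, rose 2.54-fold and 1.91-fold, and BUB1 rose 1.5-fold. BUB1B, another spindle checkpoint gene, fell 2.67-fold and AURKB, the kinase of the chromosomal passenger complex, 2.16-fold. Of the 10 of these genes with a RefSeq promoter entry, 6 had a CHR form in the 250 bases before a start. They were BUB1B, which fell, and CCNB2, KIF11, MKI67, PLK1 and TOP2A, which rose. Of all genes with an entry 24.7% had such a form, of which CTTGAA was chosen after sequences were seen.

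**Figure D5:**
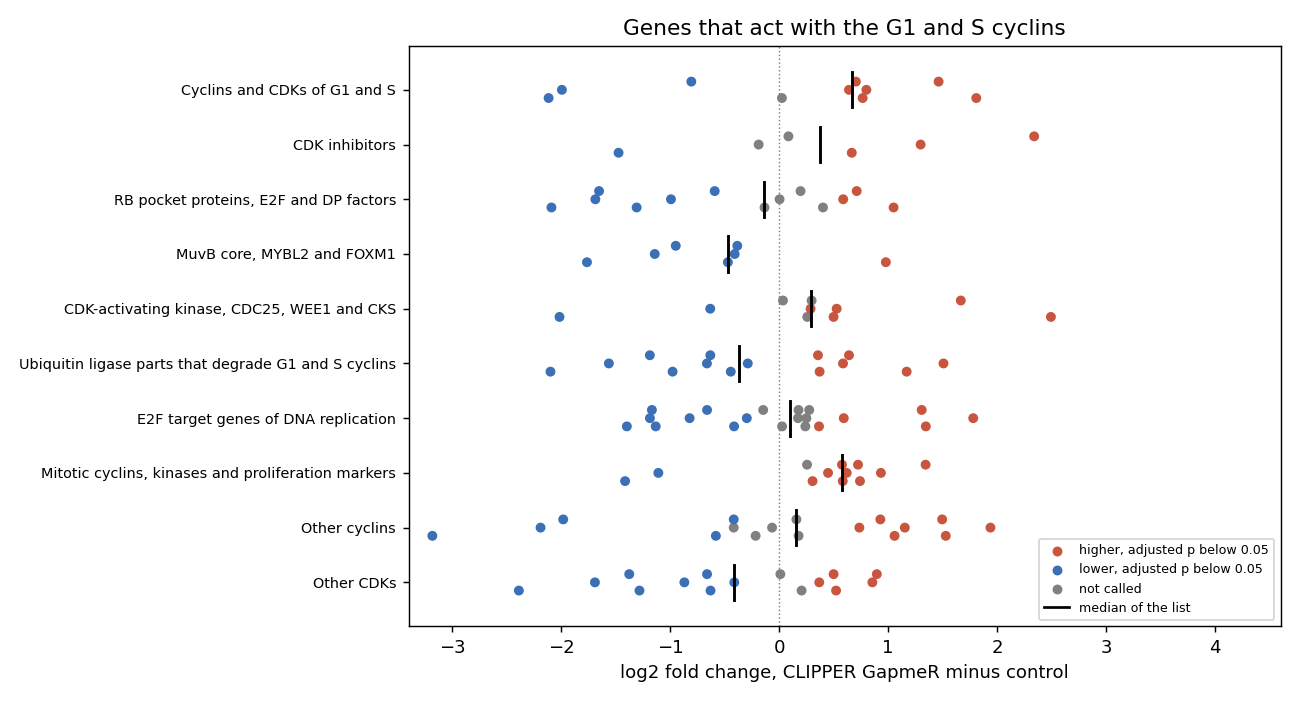
Log2 fold change (CLIPPER knockdown minus control) of every tested gene of the 10 cyclins and CDKs and of each list, 1 point a gene, with the list's median as a black line. The mitotic list has its median at 0.58 with 2 genes below 0, and the MuvB list its median at -0.47 with 1 gene above 0.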

How the data were processed

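The authors deposited 1 table of raw read counts per gene for 10 libraries, whole numbers, not normalised. Per the submitters' processing notes, reads were trimmed with Trim Galore 0.65, aligned with STAR 2.7.0 to GRCh38 and counted with HTSeq; the design text names GENCODE 38. Libraries were strand-specific per the labels, but how the counting used strand is not given in the sources used here. Sample titles gave each library's group and number, and 0 sample columns were left unmapped.

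Symbols, positions and exon lengths came by identifier from GENCODE 44 (61481 of 78932 identifiers matched). Tests used edgeR 4.0.16 in R 4.3.3: trimmed mean of M-values, filterByExpr, robust quasi-likelihood F test, Benjamini-Hochberg adjustment over 21033 genes, threshold 0.05. SE is the log2 fold change over the square root of F. Levels between genes were compared as CPM per kb of all exons joined. The 10 genes and the lists were chosen with earlier results of these data known. Named list genes are up to 3 rising and 3 falling with the smallest p. CDKN1B, CDKN2A, CDKN2C, RBL1, RBL2, CUL3 and FBXW7, and the CTTGAA form of the CHR element, were chosen after their values or sequences were seen. Every pair of libraries differed by more than sampling noise (chi-square per degree of freedom at least 4.13). The labels do not say that replicates were separate cultures, so p-values measure the spread between these samples, which may be technical.

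Alternatives were DESeq2 1.42.0, limma-voom (limma 3.58.1), the size factors of DESeq2 or upper-quartile factors within edgeR, filters of 1 count in all or of a mean of 1 CPM, mitochondrial genome genes removed, a replicate block, each library left out in turn, and knockdown replicates 1 and 2 left out together, which earlier results had shown nearest to the controls. Figures were drawn with matplotlib 3.10.9.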

Additional observations from a re-analysis of the deposited data

Results flagged for a closer look

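A library was marked where its gap to the nearest of its group, divided by the group's range, passed Dixon's critical value for 5 samples (0.71). This was tested in 148 groups of 5, on the CPM of the named genes and on the shares per kb of exon, and marked 9 libraries, while chance marks about 1 in 20 groups. None of the 10 cyclin and CDK genes was marked by its CPM. In knockdown replicate 2, the high value of its group, CCND2 came just short at 0.709 and CDK6 reached 0.667. Knockdown replicate 2 was the high value in 7 of the 9, which were FOXM1 (17.7 CPM, others 10.7 to 12), AURKB (4.78, others 2.76 to 3.22), CCNYL1 (6.04, others 2.54 to 3.37), CDK14 (16.3, others 7.69 to 10), ACTN2 (1026, others 421 to 496), ACTA2 (265, others 118 to 140) and MYH11 (15.3, others 4.45 to 6.36). Control replicate 5 was high for CDT1 (10.6 CPM, others 8.4 to 9.01) and for the share of CCND3 among D-type cyclins (13.3%, others 9.53% to 10.5%).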

How the results depend on the processing

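The 6 higher and 3 lower calls among the 10 cyclin and CDK genes kept their number, direction and side of the threshold in all 19 alternatives, and CCNE1 was called in none. The alternative without knockdown replicates 1 and 2 left out the libraries nearest to the controls and is a weak check of these calls. CCNE1, not called, changed sign with no filter beyond 1 count (-0.010), without control replicates 1 (-0.017), 3 (-0.080) and 4 (-0.008), without knockdown replicate 2 (-0.068) and without knockdown replicates 1 and 2 together (-0.027). Its range was -0.080 to 0.080 with 1 library left out and reached 0.219 with upper-quartile scaling. Upper-quartile scaling moved the median log2 fold change of all genes to 0.203, and with it CCND1 to -0.611 and CDK1 to 0.838. The 48 genes named by rule from the pathway lists kept their call and direction in these alternatives. Of the list genes named beside them as not called, CDKN1B was called lower without control replicates 2 (-0.258) and 5 (-0.237) and was at 0.011 with upper-quartile factors. CDKN2C changed sign with 1 library left out (-0.067 to -0.000) and without knockdown replicates 1 and 2 together (-0.114), and RBL2 with no filter beyond 1 count (-0.029), with 1 library left out (-0.079 to -0.008) and without both replicates (-0.145). Leaving out 1 library moved a fold of these 48 by at most 1.26 times (CCNB3 without knockdown replicate 2). Among marker genes that were not called, the sign changed for COL1A1 with DESeq2 size factors (0.005), upper-quartile factors (0.179), a mean of at least 1 CPM (0.032), without knockdown replicate 1 (0.037) and without knockdown replicates 1 and 2 together (0.055), for PDGFRA with upper-quartile factors (0.022), and for SOX17 with upper-quartile factors (0.075) and without both replicates (0.140). Of the called markers DCN lost its call in 10 of 19 alternatives (adjusted p 0.0211 to 0.555) and WT1 in 10 of 18 (0.00732 to 0.076). The cause was not tested. All called genes numbered 8441 higher and 8332 lower, and with upper-quartile factors 9566 and 7277 (50.3% and 56.8% of calls higher). With the replicate block they numbered 8214 and 8211, and the calls of the 10 genes were the same. The deviations of same-numbered libraries correlated at -0.17, 0.221, 0.105, -0.000432 and -0.0361. The value of 0.221, for replicates 2, was the highest of any control with any knockdown library. Such correlations cannot settle whether the numbers pair the samples, which is not known. Of the 10 genes CCNE2 rests on the fewest counts.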

Other observations

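Cyclins and CDKs outside G1 and S also moved both ways. Of 19 other cyclin genes 17 were tested, 7 rose and 5 fell, with a median log2 fold change of 0.16. CCNJ rose 3.83-fold from 25.3 to 97.0 CPM, CCNL2, a cyclin of splicing speckles, 2.22-fold, and CCNG1, a p53 target, 1.9-fold from 174 to 331 CPM. CCNY, the membrane-bound cyclin Y, fell 4.57-fold from 95.1 to 20.8 CPM, its relative CCNYL1 3.95-fold, and CCNB3, a cyclin best known from germ cells, 9.09-fold from 1.93 to 0.197 CPM.

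Of 16 other CDK genes 15 were tested, 5 rose and 8 fell, with a median log2 fold change of -0.41. CDK14, the kinase that cyclin Y activates, fell 5.24-fold from 54.7 to 10.4 CPM and spans 744.2 kb. CDK13, an elongation kinase of RNA polymerase II, fell 2.6-fold and CDK19, a Mediator kinase, 2.43-fold. CDK9, the kinase of P-TEFb, rose 1.81-fold. CDK11B and CDK11A rose 1.41-fold and 1.86-fold, but these genes are near-identical copies and their counts are uncertain.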
